A study of Mus musculus with 10 samples.

Results

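Nlrc5 and 8 genes that carry peptides to MHC class I molecules (Tap1, Tap2, Tapbp, Tapbpl, Erap1, Calr, Canx and Pdia3) were followed across laser-dissected colon tumours of mice. Every probe set annotated to 1 of these 9 genes and to no other gene was taken, which gave 20 of the 45101 probe sets on the array, from 9 of the 18193 genes with a probe set of their own. The tumours were induced with a single dose of dimethylhydrazine (44 mg/kg), a carcinogen precursor, and 7 days of 2% dextran sulfate sodium in the drinking water, an agent that injures the colon lining, in mice aged 6 to 8 weeks. The KO group held 5 tumours from 3 mice labelled vil-Cre-Bcl9-/-/Bcl9l-/-, with 2 tumours each from mice 02 and 04 and 1 from mouse 99. The WT group held 5 tumours from 2 mice labelled wildtype, with 4 tumours from mouse 72 and 1 from mouse 82. Both groups had the same mixed 129SvEv/C57BL/6/DBA/2 background and the same carcinogen regimen. The villin promoter of vil-Cre is active in gut epithelium. Bcl9 and Bcl9l are co-factors of beta-catenin in Wnt-driven transcription. The labels do not say whether the WT mice carried vil-Cre. Nothing in the labels states that tumours of 1 mouse are independent of each other.

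MHC class I molecules show peptides from inside the cell to CD8 T cells. The peptides are cut by the proteasome, pumped into the endoplasmic reticulum (ER) by the transporter made of Tap1 and Tap2, trimmed by the aminopeptidase Erap1, and fitted into the class I groove by the peptide-loading complex. In that complex tapasin (Tapbp) bridges the transporter and the class I molecule, with the lectin chaperone calreticulin (Calr) and the disulfide isomerase Pdia3 at its side. Calnexin (Canx) holds new class I heavy chains before they reach the complex, and the tapasin relative encoded by Tapbpl edits peptides outside it. Nlrc5 is an NLR family protein that switches on class I promoters through a complex of RFX, NF-Y and CREB factors, and interferon-gamma induces it.

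Values are log2 RMA signals, so that a difference of 1 is a doubling, and values of different probe sets cannot be ranked against each other. Array medians ranged from 6.43 to 6.50. Of the 5 probe sets of Bcl9 and Bcl9l, 4 were tested, with differences from 0.13 to 0.32 log2 and 0 past the threshold (limma; 1 at an unadjusted p under 0.05). The fifth, of Bcl9l, lay below the level filter used here, at 4.62 ± 0.05 in KO against 4.76 ± 0.05 for WT, with all 5 KO tumours below all WT tumours. The labels do not give the deleted exons, and these values were not used as a check of the genotype. The epithelial marker Epcam was at 13.59 ± 0.07 in KO against 13.58 ± 0.09 for WT (SD over 5 tumours per group), and the epithelial keratin gene Krt8 was at 13.29 ± 0.06 against 13.17 ± 0.34. Other epithelial markers differed more, and their values are given with the marker lists.

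Expression of Nlrc5, of both transporter subunits, of both tapasin genes and of Erap1 was higher in KO tumours, whereas Calr, Canx and the main probe set of Pdia3 showed differences near 0. Probe sets were tested where their mean over the 10 tumours reached 5.82 log2, the 40th percentile on the array, and 17 of the 20 did so. Past an adjusted p of 0.05, 8 of the 17 were higher in KO tumours and 0 were lower (limma with the mouse as a random block, Benjamini-Hochberg over 27001 probe sets). Over all probe sets tested, 5.73% passed, 3.21% as higher and 2.52% as lower. An unadjusted p under 0.05 was reached by 5594 of the 27001 (limma). In the same 8 probe sets every KO tumour lay above every WT tumour, a separation upwards found in 4.65% of all probe sets tested. The 8 came from 7 genes, with 2 from Tapbpl and 1 from each of the others, Pdia3 among them. When each mouse was reduced to 1 mean, 4 of the 17 passed, against 2.82% of all probe sets. Of the 8, 4 also changed at least 2-fold, as did 3.22% of all probe sets tested.

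Only 5 mice stand behind the 10 tumours, and the sample numbers in the labels fall into 191 to 229 (1 KO and 4 WT tumours) and 254 to 258 (4 KO and 1 WT), so the count was repeated with these taken into account. With the number range as a covariate 6 of the 17 probe sets passed, against 5.82% of all. Within the lower numbers 1 passed (0.207% of all) and within the upper 3 (5.2%), where 1 group is a single tumour whose spread is assumed to match the others. Without mouse 72, which leaves 1 WT tumour, 4 passed (2.13%). With the difference between 3′ and 5′ probe sets of control genes, a measure of RNA integrity, as a covariate 6 passed (3.88%).

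**Figure D1:**
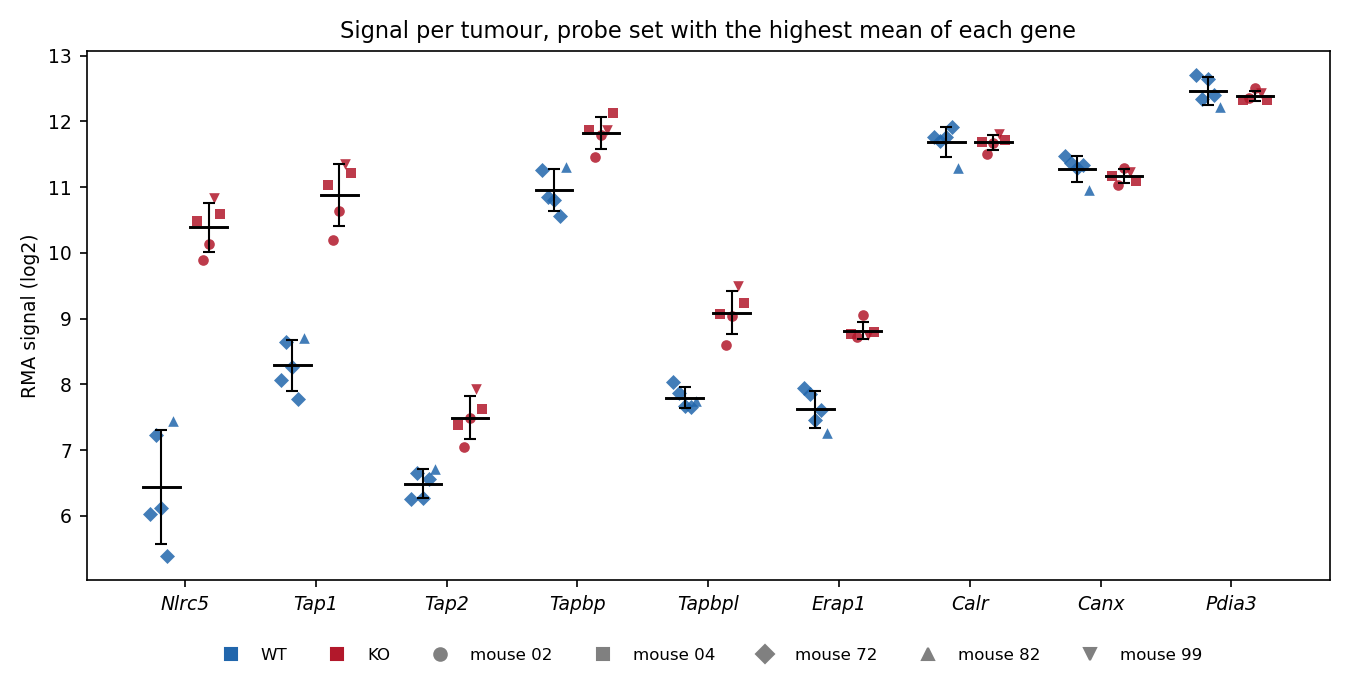
RMA signal (log2, vertical axis) of the probe set with the highest mean of each gene (horizontal axis), 1 point per tumour, with WT in blue, KO in red and the mouse given by the symbol. Bars show the mean and SD of 5 tumours. The 5 KO tumours lie above the 5 WT tumours for the genes from Nlrc5 to Erap1 and overlap them for Calr, Canx and Pdia3.

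Nlrc5, the transactivator, showed the largest difference of the 17 probe sets. Its only probe set (1437176_at) was at 10.84 in KO tumour 7, 10.59 in tumour 9, 10.49 in tumour 11, 10.13 in tumour 6 and 9.89 in tumour 2. In WT tumours it was at 7.44 in tumour 8, 7.23 in tumour 12, 6.12 in tumour 13, 6.03 in tumour 1 and 5.39 in tumour 3. Every KO tumour was thus far above every WT tumour, and WT tumours differed among themselves more than KO tumours did (SD 0.87 against 0.38). The fitted difference was 3.91 ± 0.39 log2 (SE), a 15.0-fold rise (limma, adjusted p = 0.000397). Means per mouse were 10.01, 10.54 and 10.84 in KO mice 02, 04 and 99 and 6.20 and 7.44 in WT mice 72 and 82. Over these means Nlrc5 passed (3.65 log2, limma, adjusted p = 0.0141), and without mouse 72 it was 2.97 log2 (adjusted p = 0.00953), with 1 WT tumour left and its spread assumed to match the others. Within the lower numbers the difference was 4.32 log2, which did not pass (adjusted p = 0.130), and within the upper it was 4.24 (adjusted p = 0.00392).

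The signals of the transporter subunits rose by different amounts. Tap1, measured by probe set 1416016_at, was at 11.35 in KO tumour 7, 11.21 in tumour 9, 11.04 in tumour 11, 10.64 in tumour 6 and 10.19 in tumour 2. WT tumours gave 8.70 in tumour 8, 8.64 in tumour 12, 8.26 in tumour 13, 8.06 in tumour 1 and 7.78 in tumour 3. The tumours stood in the same order as for Nlrc5 in both groups. The rise was 2.59 ± 0.26 log2 or 6.00-fold (limma, adjusted p = 0.000396; 0.0192 over mouse means). It was 3.02 log2 within the lower numbers, where it did not pass (adjusted p = 0.0627), and 2.71 within the upper.

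The other 3 probe sets annotated to Tap1 did not show this rise. Probe set 1448177_at was between 5.98 and 6.32 in KO and between 6.09 and 6.24 in WT tumours (difference 0.07 ± 0.10, limma, adjusted p = 0.762). Probe sets 1449803_x_at and 1420274_at, with means of 3.42 and 2.33 over all tumours, lay below the level filter. What part of the transcript each probe set targets was not examined here, so the fold of Tap1 rests on 1 of its 4 probe sets.

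Tap2 had a single probe set (1453913_a_at), at 7.92 in KO tumour 7, 7.63 in tumour 9, 7.49 in tumour 6, 7.38 in tumour 11 and 7.04 in tumour 2. WT tumours gave 6.72 in tumour 8, 6.65 in tumour 12, 6.57 in tumour 3, 6.27 in tumour 13 and 6.25 in tumour 1. No KO tumour overlapped a WT tumour, and the gap between the groups was smaller than for Tap1. The rise was 1.0 ± 0.18 log2 or 2.00-fold (limma, adjusted p = 0.00915). It failed the threshold over mouse means (0.99 log2, adjusted p = 0.0873), without mouse 72 (0.79 log2, adjusted p = 0.297) and within either number range (0.112 and 0.0674). In every KO tumour the log2 difference Tap1 minus Tap2 was above that of every WT tumour. The signal of Tap1 1416016_at rose by 1.60 ± 0.18 log2 more than that of Tap2 (exact two-sided permutation test over tumours, p = 0.00794, the smallest that 5 against 5 can give, adjusted p = 0.0111 over 7 pairs of genes). This test takes the 10 tumours as independent although they come from 5 mice. Over mouse means the difference was 1.53 log2 (exact permutation, p = 0.1, the smallest that 3 mice against 2 can give), and without mouse 02 the adjusted p was 0.05. The same smallest p over mouse means holds for every pair compared here. With the mean of all 4 Tap1 probe sets in place of 1416016_at the sign turned (−0.39 log2, exact permutation, adjusted p = 0.0139), since the 3 flat probe sets then make up most of the Tap1 value.

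Tap1 has a close neighbour on chromosome 17. Psmb9, which encodes a subunit of the immunoproteasome, starts 225 bases away and is read in the opposite direction. The stretch between the 2 start sites is shown because both genes rose. It is from RefSeq (GRCm38.p6, chr17:34187331-34187555, strand of Tap1), with matches to CCAAT (the NF-Y motif), GGGCGG (the GC box) and TGACG (the core of the CREB motif) on either strand in capitals.
Tap1-Psmb9: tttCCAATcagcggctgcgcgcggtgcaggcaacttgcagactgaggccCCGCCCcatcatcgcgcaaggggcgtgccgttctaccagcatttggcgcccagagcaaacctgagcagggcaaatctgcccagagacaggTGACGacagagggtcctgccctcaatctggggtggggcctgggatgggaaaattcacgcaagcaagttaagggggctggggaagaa
Psmb9 was at 12.22 ± 0.46 in KO against 8.88 ± 0.49 for WT (SD over 5 tumours per group), a difference of 3.32 log2 (limma, adjusted p = 0.000210). The signal of Tap1 1416016_at rose by 0.74 ± 0.11 log2 less than that of Psmb9, in the same direction in each KO tumour against each WT tumour (exact two-sided permutation test, p = 0.00794, adjusted p = 0.0111 over 7 pairs).

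Tapasin and its relative rose as well. Tapbp, probe set 1421812_at, was at 12.13 in KO tumour 9, 11.87 in tumours 7 and 11, 11.79 in tumour 6 and 11.46 in tumour 2. The WT values were 11.30 in tumour 8, 11.26 in tumour 1, 10.85 in tumour 12, 10.81 in tumour 13 and 10.57 in tumour 3. The groups did not overlap, with KO tumour 2 close above WT tumours 8 and 1. The rise was 0.85 ± 0.18 log2 or 1.81-fold (limma, adjusted p = 0.0207). The call was lost over mouse means (0.75 log2, adjusted p = 0.121), without mouse 72 (0.52 log2, 0.398) or 04 (0.75 log2, 0.0870) and without KO tumour 6 (0.84 log2, 0.0582). It was also lost with the number range as a covariate (0.74 log2, 0.0872), within the lower numbers (1.0 log2, 0.345), within the upper (0.56 log2, 0.336) and with the 3′ to 5′ covariate (0.81 log2, 0.0527). The other probe set of Tapbp (1450378_at) differed by 0.79 ± 0.25 log2, with KO tumour 2 (7.99) inside the WT range of 7.56 to 8.30, and did not pass (limma, adjusted p = 0.100). Without KO tumour 2 it did (0.98 log2, adjusted p = 0.0171).

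Tapbpl, probe set 1451544_at, was at 9.49 in KO tumour 7, 9.24 in tumour 9, 9.07 in tumour 11, 9.05 in tumour 6 and 8.60 in tumour 2. The WT values were 8.04 in tumour 1, 7.87 in tumour 12, 7.75 in tumour 8, and 7.66 in tumours 3 and 13. The WT tumours lay close together, below all KO tumours. The rise was 1.30 ± 0.17 log2 or 2.46-fold (limma, adjusted p = 0.00158), and it passed over mouse means (1.38 log2, adjusted p = 0.0316) but not without mouse 72 (1.36 log2, adjusted p = 0.0914) or within the upper numbers (0.95 log2, adjusted p = 0.118). The other probe set (1424961_at) ranged from 7.05 to 7.50 in KO and from 6.19 to 6.69 in WT tumours, again without overlap, and rose by 0.77 ± 0.13 log2 (limma, adjusted p = 0.00640; 0.110 over mouse means, 0.292 without mouse 72 and 0.154 within the lower numbers). Tapbpl thus rose by both of its probe sets. By the probe sets with the highest mean, the signal of Tapbp minus that of Tapbpl changed by −0.42 ± 0.15 log2 (exact two-sided permutation test, p = 0.00794, adjusted p = 0.0111 over 7 pairs). With the mean of both probe sets of each gene that change was −0.21 and did not pass (exact permutation, adjusted p = 0.222). The 2 probe sets of Tapbpl themselves rose by 1.30 and 0.77 log2, so this pair does not show that Tapbpl RNA rose more than Tapbp RNA.

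Erap1, the aminopeptidase that trims peptides in the ER, rose too. Its probe set 1416942_at was at 9.06 in KO tumour 6, 8.80 in tumour 9, 8.77 in tumour 11, 8.75 in tumour 7 and 8.72 in tumour 2. In WT tumours it was at 7.94 in tumour 1, 7.86 in tumour 12, 7.60 in tumour 3, 7.46 in tumour 13 and 7.25 in tumour 8. KO tumours spread little (SD 0.14) and all lay above the WT tumours, in another order than for Nlrc5. The rise was 1.21 ± 0.15 log2 or 2.31-fold (limma, adjusted p = 0.00130; 0.0221 over mouse means and 0.0151 without mouse 72). Within the lower numbers it was 1.20 and within the upper 0.89 log2, neither past the threshold (adjusted p = 0.190 and 0.0667). The other Erap1 probe set (1439068_at) lay below the level filter with a mean of 5.39. It ranged from 5.65 to 6.34 in KO and from 4.32 to 5.54 in WT tumours, and without the filter its difference was 1.12 log2 (limma, adjusted p = 0.0211).

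**Figure D2:**
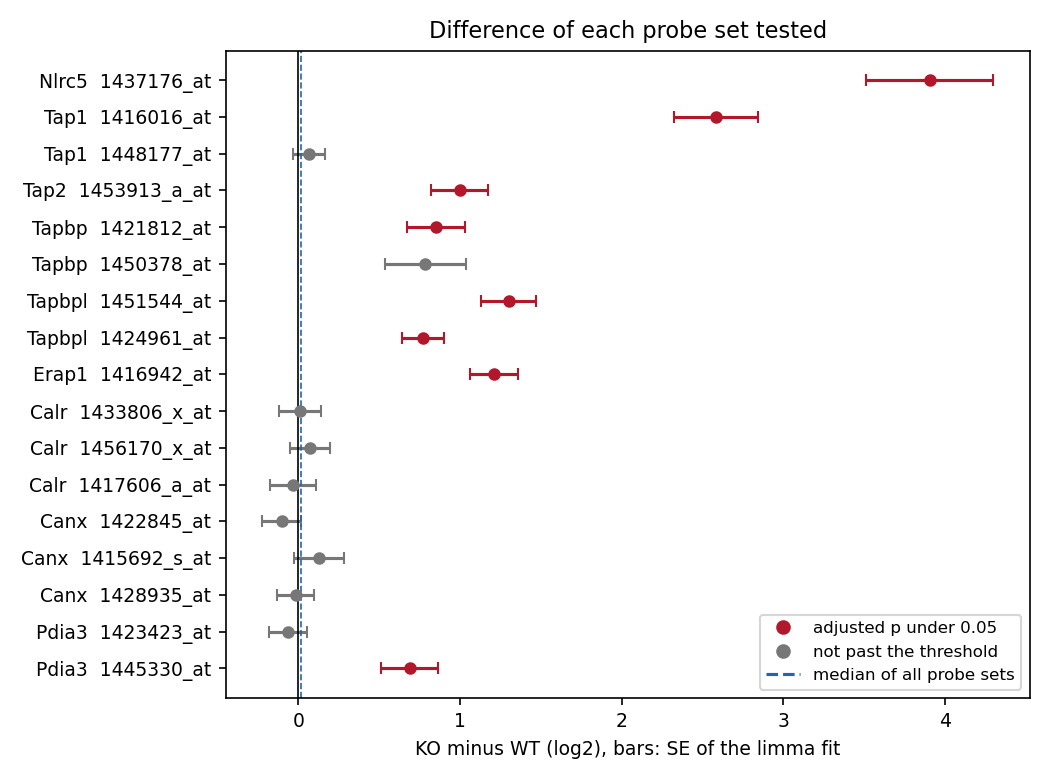
KO minus WT difference (log2, horizontal axis) of the 17 probe sets tested, with the SE of the limma fit as bars and the probe sets in red where the adjusted p was under 0.05. The dashed line is the median of all probe sets tested, 0.01. The differences run from 3.91 for Nlrc5 down to values around 0 for Calr, Canx and the upper probe set of Pdia3.

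The general ER chaperones of the group behaved differently. Calr was measured by 3 probe sets with differences of 0.01 ± 0.13, 0.07 ± 0.12 and −0.03 ± 0.14 log2 (1433806_x_at, 1456170_x_at and 1417606_a_at). Probe set 1433806_x_at ranged from 11.50 to 11.81 in KO and from 11.30 to 11.92 in WT tumours, so that the KO range lay inside the WT range. Canx, also with 3 probe sets, had differences of −0.10 ± 0.12, 0.13 ± 0.16 and −0.02 ± 0.11 log2 (1422845_at, 1415692_s_at and 1428935_at). None of these 6 probe sets passed, with adjusted p-values from 0.686 to 0.969 and 0 at an unadjusted p under 0.05 (limma). Without mouse 72, which leaves 1 WT tumour, Canx 1415692_s_at was at 0.65 log2 (limma, unadjusted p = 0.0103, adjusted p = 0.161), and the 3 Calr probe sets at 0.39, 0.42 and 0.36 log2. The change of Calr minus that of Canx was 0.11 ± 0.07 log2 (exact permutation test, adjusted p = 0.176).

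Pdia3, which shapes disulfide bonds in class I heavy chains and in other glycoproteins, gave results that differed by probe set. Probe set 1423423_at ranged from 12.32 to 12.51 in KO and from 12.21 to 12.71 in WT tumours (difference −0.06 ± 0.12 log2, limma, adjusted p = 0.818). Probe set 1445330_at was at 7.68 in KO tumour 2, 7.56 in tumour 7, 7.46 in tumour 6, 7.37 in tumour 11 and 7.34 in tumour 9. In WT tumours it was at 7.14 in tumour 1, 6.98 in tumour 13, 6.91 in tumour 3, 6.89 in tumour 12 and 6.18 in tumour 8. Its rise of 0.69 ± 0.18 log2 passed narrowly (limma, adjusted p = 0.0454). It did not pass in 16 of 25 other fits, among them mouse means (adjusted p = 0.134), the number range as a covariate (0.140), the 3′ to 5′ covariate (0.0696), and the fits without any 1 of the 5 KO tumours. KO tumour 2 was the highest KO tumour here and the lowest for Nlrc5, Tap1 and Tap2. No statement on the level of Pdia3 RNA as a whole follows from 2 probe sets that disagree. The change of Pdia3 by 1423423_at minus that of Pdia4, another disulfide isomerase of the ER, was −0.16 ± 0.12 log2 (exact permutation test, adjusted p = 0.214).

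Promoters were compared because the genes split into those that rose and those near 0. RefSeq promoter sequences (GRCm38.p6) were at hand for 6 of the 9 genes, namely Tap1, Tapbp, Erap1, Calr, Canx and Pdia3, and the 250 bases before the start site were searched on both strands. The ER stress element, searched as CCAAT followed after 9 bases by CCACG, was found in Calr and Canx and in 0.113% of 32851 promoters. The interferon-related motifs TTCNNNGAA (the GAS element, in 7.02% of promoters) and GAAA followed after 2 bases by GAAA (the ISRE, in 2.98%) were found in 0 of the 6. Promoters of the immunoproteasome genes Psmb8, Psmb9 and Psmb10 were searched too, and that of Psmb8 held a GAS match. CCAAT, which is part of the ER stress element, was found in 5 of the 6 (33.8% of promoters), GGGCGG in 5 (32.7%) and TGACG in 3 (17.8%). Erap1 was the gene without CCAAT and GGGCGG, and TGACG was found in Tap1, Canx and Pdia3. Each of these motifs thus occurred both in genes that rose and in genes near 0. A match is a run of letters and not a measured binding site. The promoters of Calr (chr8:84846932-84847181, minus strand) and Canx (chr11:50325674-50325923, minus strand) are shown for this shared element, in capitals.
Calr: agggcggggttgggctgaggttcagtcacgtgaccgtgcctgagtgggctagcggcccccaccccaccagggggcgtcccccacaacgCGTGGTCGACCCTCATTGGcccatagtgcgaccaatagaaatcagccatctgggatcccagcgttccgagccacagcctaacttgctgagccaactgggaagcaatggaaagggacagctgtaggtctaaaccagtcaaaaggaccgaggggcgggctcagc
Canx: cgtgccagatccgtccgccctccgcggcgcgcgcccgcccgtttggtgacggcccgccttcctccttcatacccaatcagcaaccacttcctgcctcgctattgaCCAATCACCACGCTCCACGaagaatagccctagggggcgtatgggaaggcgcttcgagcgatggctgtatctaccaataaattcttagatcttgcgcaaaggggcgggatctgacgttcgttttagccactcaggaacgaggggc
In Calr the element lies on the opposite strand, 144 to 162 bases before the start site, and in Canx it reads along the gene, 127 to 145 bases before it.

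The tumours of a group did not differ in the same way for every gene. After each group's mean was subtracted, KO tumour 2 was at −0.50 log2 for Nlrc5, −0.69 for Tap1, −0.45 for Tap2, −0.37 for Tapbp and −0.49 for Tapbpl, and it was the lowest KO tumour for 8 of the 9 genes. KO tumour 7, the only tumour of mouse 99, was the highest KO tumour for Nlrc5, Tap1, Tap2, Tapbpl and Calr. WT tumour 8, the only tumour of mouse 82, was the highest WT tumour for Nlrc5, Tap1, Tap2 and Tapbp (1.0, 0.41, 0.23 and 0.35 log2 above the WT mean). The same tumour was the lowest for Erap1, Calr, Canx and Pdia3 (−0.37, −0.39, −0.33 and −0.25). The 3′ to 5′ difference was 1.17 log2 in KO tumour 2, the highest of the 10 arrays, and from 0.71 to 0.86 in the other KO tumours. In WT tumours it ranged from 0.78 to 1.14. Its part in the low values of KO tumour 2 was not tested.

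**Figure D3:**
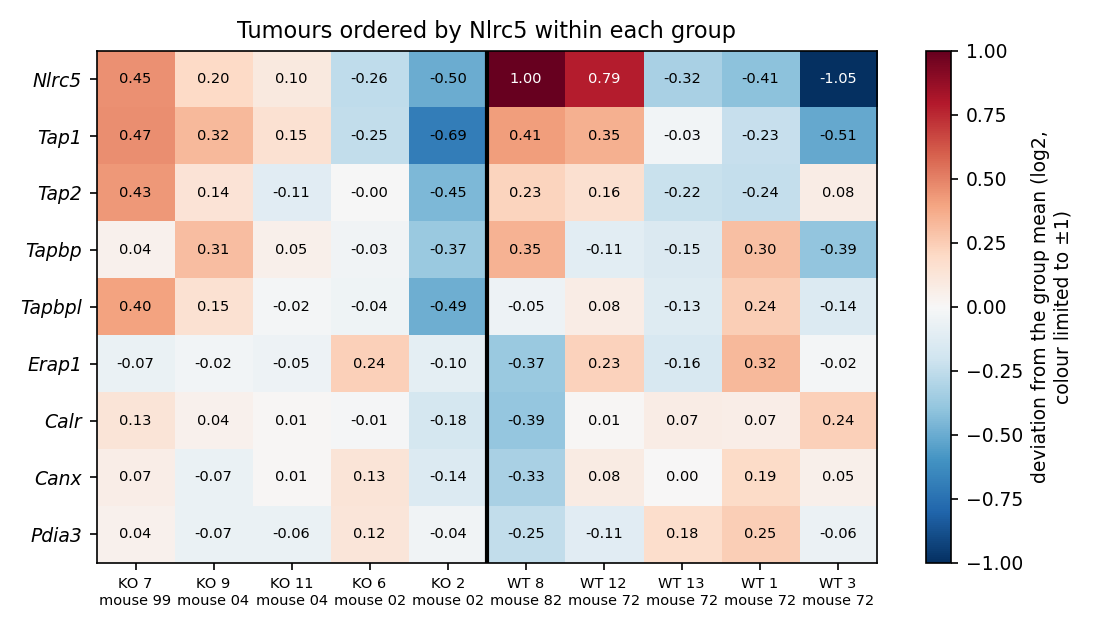
Deviation of each tumour from its group mean (log2, colour and printed value) for the probe set with the highest mean of each gene (rows). Columns are the 5 KO tumours, left of the line, and the 5 WT tumours, each ordered from high to low Nlrc5. Tap1 follows the order of Nlrc5 in both groups, whereas WT tumour 8 is high for Nlrc5 and Tap1 and low for Erap1, Calr, Canx and Pdia3.

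To name the genes most like Nlrc5, the correlation of deviations from the group means over the 10 tumours served as a measure of likeness, with no test, among 11662 genes. Such a measure takes its value from few tumours and mice. The 8 closest genes were Npff, a neuropeptide gene (0.98), the T cell adaptor gene Lat (0.96), the chemokine gene Cxcl9 (0.94), the interferon-inducible GTPase gene Ifi47 (0.93), the kinase gene Sik3 (0.93), the inflammatory caspase gene Casp4 (0.92), the RNA cap methyltransferase gene Pcif1 (0.91) and the immunoproteasome gene Psmb8 (0.91). Of these 8, Lat, Cxcl9, Ifi47 and Psmb8 were also higher in KO tumours past the threshold, by 0.96, 5.02, 3.25 and 3.22 log2, with the WT mean of Cxcl9 (4.79) under the level filter. Npff, Sik3 and Pcif1 differed by 0.01, 0.08 and 0.14 log2 without passing, and Casp4 by 1.18 (limma, adjusted p = 0.0509). Tap1 ranked 18th, with a value of 0.88 (0.98 within the 5 KO and 0.99 within the 5 WT tumours). Tap2 and Tapbp were at 0.60 and 0.58, Tapbpl at 0.41 and Erap1 at −0.25. These values lean on the WT tumours, in which Nlrc5 spread more (SD 0.87 against 0.38 in KO). Within KO and within WT tumours, Tap2 was at 0.89 and 0.59 and Tapbp at 0.76 and 0.55. Tapbpl was at 0.94 and 0.17, and Erap1 at −0.26 and −0.25.

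The genes that Nlrc5 and the loading complex serve were then counted, to place the 9 genes in their pathway. Each gene in a list was read by its probe set with the highest mean, and over all 12250 genes tested in that way 3.67% passed as higher and 2.6% as lower. Of 8 class I genes tested, 6 rose and 0 fell, with a median difference of 1.03 log2 against 0.01 over all probe sets. The class I gene H2-Q5 was 3.74 log2 higher, with a WT mean of 5.37 that lay under the level filter, the class I genes H2-K1 and H2-D1 0.94 and 0.96 log2, and B2m, the light chain of every class I molecule, 1.09 log2 (13.31 ± 0.14 against 12.22 ± 0.29, SD over 5 tumours per group). These 4 passed with adjusted p-values from 0.000216 to 0.00927 (limma). Class I genes are so alike that a probe set may read several of them. The count was 4 of 8 over mouse means, 3 without mouse 04 and 2 without mouse 72.

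The interferon-induced proteasome parts moved and their constitutive counterparts did not pass. All 4 genes tested of the immunoproteasome and its activator rose, Psmb9 and Psmb8 by 3.32 and 3.22 log2, Psmb10 by 1.59 and Psme1 by 0.95 (adjusted p-values up to 0.00275, limma). The 4 passed over mouse means too, and 2 did without mouse 72. Of the constitutive genes Psmb5, Psmb6, Psmb7 and Psme3, 0 of 4 passed and 0 had an unadjusted p under 0.05, with differences of 0.17, 0.17, 0.02 and −0.12 log2.

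Partners of Nlrc5 at class I promoters showed little change. Of 7 tested, Rfxap, an RFX subunit, rose by 0.41 log2 (limma, adjusted p = 0.0433), a call lost over mouse means (0.175) and in 17 of 26 other fits in all, and 0 fell. Rfx5, which binds DNA in the same complex, had a difference of −0.25, Nfya 0.23 and Nfyb −0.18 log2, none past the threshold. The median over the list was 0.02 log2.

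Among 11 genes of interferon-gamma signalling, 5 rose and 0 fell, with a median of 0.39 log2. The transcription factor genes Irf1, Stat2, Irf9 and Irf2 rose by 1.76, 1.14, 0.80 and 1.04 log2 (limma, adjusted p = 0.000294, 0.0172, 0.0178 and 0.0228). Over mouse means and without mouse 04, 1 of the 11 passed, without mouse 72 it was 2, and without mouse 02, KO tumour 6 or WT tumour 1 it was 3. Ifng itself lay below the level filter, at 5.89 ± 0.75 in KO against 4.27 ± 0.09 for WT. Its receptor genes Ifngr1 and Ifngr2 differed by 0.27 and 0.07 log2 and did not pass.

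ER folding genes outside the loading complex were counted next. Of 29 tested, 0 passed in either direction, where 3.67% of all genes passed as higher and 2.6% as lower. The median was 0.18 log2. An unadjusted p under 0.05 was found for 5 of the 29 (limma), against 5594 of all 27001 probe sets tested. Edem1, which marks misfolded glycoproteins for disposal, and Sdf2l1 differed by 0.59 and 0.60 log2 (adjusted p = 0.0570 and 0.122). Herpud1 and Erp44 differed by 0.55 and 0.30 log2 (0.169 and 0.155). Without mouse 72, 2 of the 29 passed. Peptidases of the cytosol and other compartments had 0 of 8 past the threshold and 1 at an unadjusted p under 0.05, Lap3, at 0.69 log2 (limma, adjusted p = 0.201). Next by p were Blmh, Dpp3 and Tpp2, with −0.18, 0.13 and 0.11 log2. Without KO tumour 2, and without mouse 02, 1 of the 8 passed.

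Class II presentation and the relatives of Nlrc5 and of the transporter gave further points of reference. Of 9 class II genes tested, 7 rose, among them Ciita, the class II transactivator and a relative of Nlrc5, by 2.64 log2, and H2-DMa, Cd74 and H2-Eb1 by 2.93, 2.37 and 2.28. Without mouse 72, 0 of the 9 passed. The signal of Nlrc5 rose by 1.35 ± 0.22 log2 more than that of Tap1 (exact two-sided permutation test, p = 0.00794, adjusted p = 0.0111 over 7 pairs), and by 0.76 more without mouse 72. Between the signals of Nlrc5 and Ciita the changes differed by 1.31 ± 0.34 log2 (the same p-values), and by 0.47 without mouse 72 (exact permutation, p = 0.5). Ciita was at 5.24 to 5.89 in WT tumours, a mean of 5.69 that lay under the level filter, so its rise may be understated and this pair does not show that Nlrc5 rose more. Among 7 tested genes of the NLR family, 5 rose, Nlrp10 by 3.11 (all WT tumours, at 3.71 to 5.31, lay under the level filter), Naip5 by 1.35, Nod1 by 0.95 and Nlrx1 by 1.04 log2 as the 4 with the smallest p. The number was 2 without KO tumour 6, mouse 02 or mouse 72, and 3 without KO tumour 9 or 11, WT tumour 1, 8 or 13, mouse 04 or mouse 82. Of 7 other ABC transporters of the subfamily of Tap1 and Tap2, 0 rose and Abcb10 fell by 0.74 log2 (limma, adjusted p = 0.0487; 0.272 over mouse means; not past the threshold in 18 of 26 other fits), with a list median of −0.24. Next by p were Abcb8, Abcb1a and Abcb9, at 0.31, −0.51 and −0.24 log2 without passing.

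**Figure D4:**
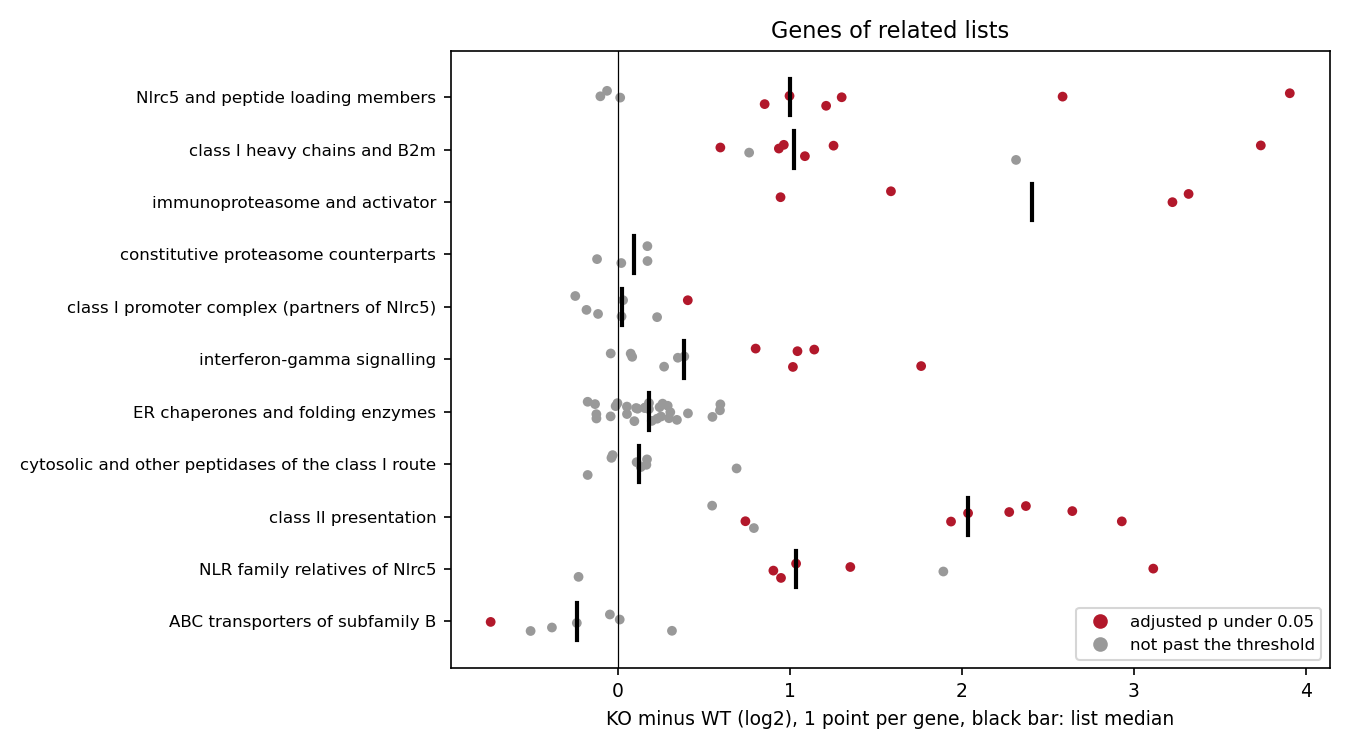
KO minus WT difference (log2, horizontal axis) of each gene tested in the 9 genes described here, by the probe set with the highest mean, and in 10 related lists (rows). Red points had an adjusted p under 0.05 and black bars are list medians. The list medians run from −0.24 for ABC transporters to 2.41 for the immunoproteasome and its activator.

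Part of the lymphocyte markers were higher in the same KO tumours. In dissected tissue a change in the number of cells of a type and a change in RNA per cell cannot be told apart. Of 15 T and NK cell markers measured, 10 were tested, 5 rose and 0 fell (3 rose without KO tumour 6, 9 or 11, WT tumour 1 or 13, mouse 04 or mouse 72). Cd8a rose by 2.70, Cd3g by 1.64, Gzmb by 1.84 and Cd2 by 0.97 log2. The WT means of these 4 (5.77, 5.38, 5.08 and 5.65) lay under the level filter, so they passed it through the KO tumours. The size of their differences is uncertain, and the count of T and NK cell markers that rose is no separate support. Gzma also rose, by 2.25 log2, with a WT mean of 5.86. The 5 that did not pass were Ptprc, carried by all leukocytes (0.94, limma, adjusted p = 0.0742), Cd3d (0.58), Cd4 (0.05), Thy1 (0.03) and Cd247 (−0.14). The log2 of the summed signal of the 15 markers was 11.59 to 11.94 in KO and 10.77 to 11.37 in WT tumours. Such a sum adds unlogged signals, so the strongest markers weigh most, here Ptprc, Cd247 and Thy1, which did not pass. The T cell markers Cd3e and Cd8b1 and the NK cell markers Nkg7, Klrd1 and Ncr1 lay below the level filter. Cd3e was at a mean of 6.10 in KO against 4.38 for WT, Nkg7 at 6.04 against 4.72 and Klrd1 at 4.71 against 3.54. For each of these every KO tumour lay above every WT tumour. The groups overlapped for Cd8b1 (5.52 against 4.74) and Ncr1 (3.13 against 3.17). All 5 tested markers of B and plasma cells rose (3 without mouse 72), Jchain by 2.76, Mzb1 by 2.71, Pou2af1 by 2.69 and Cd79a by 1.82 log2. Cd79b rose by 1.10 log2. The WT means of Mzb1, Pou2af1, Cd79a and Cd79b (4.92, 5.66, 5.07 and 5.33) lay under the filter as well. They were tested because of their KO values, so the count of B and plasma cell markers that rose is no separate support. The log2 of the summed signal over 7 markers was 12.14 to 12.65 in KO and 8.96 to 10.54 in WT tumours. Most of this sum is Jchain, at a mean of 12.08 in KO and 9.37 in WT tumours. The B cell marker Ms4a1 lay below the filter.

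Of 9 tested macrophage, monocyte and dendritic cell markers, 1 rose, Cd14, by 1.92 log2 (2 rose without WT tumour 3 or 12). Itgax, Lyz2 and C1qc differed by 0.58, −0.43 and 0.24 log2 without passing, and the summed signal over 14 markers ranged from 12.99 to 13.33 in KO and from 12.63 to 13.65 in WT tumours. The macrophage marker Adgre1 and the dendritic cell markers Flt3, Xcr1 and Batf3 lay below the level filter. Neutrophil (3 tested), epithelial (10), fibroblast (7) and endothelial (6) markers had 0 past the threshold, and 1, 2, 1 and 1 of them had an unadjusted p under 0.05 (limma). Of the epithelial markers, Vil1, which encodes villin, had the smallest p, at 0.69 log2 (limma, adjusted p = 0.0801), with every KO tumour above every WT tumour. Cdh1, Cldn7 and Cldn3 were at 0.34, 0.29 and 0.28 log2, and Krt20 and Krt18 at −0.48 and −0.07. The neutrophil markers Csf3r, S100a8 and S100a9 differed by 0.68, −0.18 and −0.15 log2. The fibroblast markers Dcn, Col1a1, Pdgfra and Col1a2 were at −0.74, −0.53, −0.53 and −0.37 log2, and the endothelial markers Vwf, Tek, Cdh5 and Kdr at −0.91, −0.99, −0.52 and −0.10. A single marker passed without KO tumour 11 or mouse 04 (neutrophil), without WT tumour 3 or 12 (epithelial) and without WT tumour 3 (fibroblast). The summed signal over the 10 epithelial markers was 15.83 to 15.96 in KO and 15.47 to 16.07 in WT tumours. The part that lymphocyte RNA has in the rise of Nlrc5, Tap1, Tap2, Tapbp, Tapbpl and Erap1 was not tested.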

How the data were processed

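RNA of each tumour was amplified from 30 ng and hybridised to 1 Affymetrix Mouse Genome 430 2.0 array, per the labels. The labels also speak of pooling samples of a mouse, and each array was taken as 1 tumour. The authors deposited log2 signals made with RMA, per the submitters' processing notes. Precision is limited by the number of arrays and, for KO against WT, by the smaller number of mice (3 KO and 2 WT).

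Of 45101 probe sets, 64 controls were left out. A single symbol was annotated for 34945, and 34741 symbols were updated by Entrez identifier to GRCm38.p6 names. KO and WT tumours were compared with limma 3.58.1 (R 4.3.3, statmod 1.5.0), the mouse as a random block (consensus correlation 0.0777), for 27001 probe sets with a mean at or above 5.82 log2. Differences are those of the fit, which weights tumours by mouse. A gene in a list was represented by its probe set with the highest mean. Pairs of genes, 7 of the 8 planned, were compared by exact permutation tests that take tumours as independent. Each pair used 1 probe set per gene unless stated. Probe sets of 1 gene could differ in their change, so a pair compares signals and not amounts of RNA. P-values set a difference against the spread between these tumours, and they say little about the spread between mice.

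On simulated data for KO against WT over 27001 probe sets, 65% of true 2-fold changes were recovered and 96% of those of 4-fold, and 5.85% of the calls were false. The simulation drew values from a normal distribution, with the same spread in both groups, few changed probe sets and the mouse correlation of the fit. The measured data have more calls and unequal spreads, so these shares may not hold for them. All 20 probe sets are reported. Of each list, the 4 tested genes with the smallest p were named, or all where fewer were tested, with defining markers and members of a known role beside them. The genes and lists were chosen with earlier results of these data known.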

Additional observations from a re-analysis of the deposited data

Results flagged for a closer look

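Among 74 groups of 5 tumours examined (20 probe sets and 17 list means, each in KO and WT), 10 had a tumour set apart from the other 4 by a gap above 0.71 of the group's range, where chance gives about 1 in 20. That rate takes the tumours of a group as exchangeable, whereas 4 WT tumours come from mouse 72 and WT tumour 8 is the only one of mouse 82, and the 74 groups are read from the same 10 tumours. For Erap1 (1416942_at), KO tumour 6 was at 9.06 and the other KO tumours at 8.72 to 8.80. For Canx (1415692_s_at), WT tumour 8 was at 9.85 and the other WT tumours at 10.42 to 10.63. The same tumour was at 6.18 for Pdia3 (1445330_at), where the others were at 6.89 to 7.14, and without it the Pdia3 rise was 0.50 log2. For Canx (1428935_at), WT tumour 1 was at 8.20 and the others at 7.91 to 7.97.

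KO tumour 2 was low in the mean level of the class I genes (9.60, others 10.29 to 10.52) and of the class II genes (9.92, others 10.75 to 10.95). WT tumour 3, which had the lowest Nlrc5 value of all tumours, was low in the mean level of the class II genes (8.34, others 8.88 to 9.10), the macrophage, monocyte and dendritic cell markers (7.99, others 8.70 to 8.94), the fibroblast markers (9.42, others 10.35 to 10.68) and the endothelial markers (6.46, others 7.45 to 7.84).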

How the results depend on the processing

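Of the 17 tested probe sets of the 9 genes 8 passed, and 4 did over mouse means, 4 without mouse 72, 4 with a change of at least 2-fold, 3 within numbers 254 to 258 and 1 within 191 to 229 (5 tumours each). Leaving out 1 tumour gave 6 to 8. Over all probe sets 1547 passed, against 762 over mouse means, 56 within 191 to 229, 998 above the 60th percentile, 868 with 1 probe set per gene, 870 at 2-fold or more, 954, 740 and 576 without mouse 02, 04 and 72, and 874 to 1754 without 1 tumour. Fits with no block, other scalings, array weights and a moderated trend kept the direction of every called probe set of the 9 genes.

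For the pairs, 3 mice against 2 cannot give an exact permutation p under 0.1, nor the tumours without mouse 72 one under 0.167, and without mouse 02 no adjusted p was under 0.05. Tap1 minus Tap2 was 1.76 without mouse 02, 1.41 without mouse 72, 1.53 over mouse means and −0.39 with all probe sets averaged. Tapbp minus Tapbpl was −0.47, −0.50 and −0.82 without mouse 02, 04 and 72, −0.63 over mouse means and −0.21 with all probe sets. Nlrc5 minus Ciita was 1.23, 1.25 and 0.47 without those mice, 0.93 over mouse means and 2.13 with all probe sets. Tap1 minus Psmb9 was −0.67 and −0.71 without mouse 02 and 72 and −0.71 over mouse means, and Nlrc5 minus Tap1 was 1.28, 0.76 and 1.13. With all probe sets averaged these were −2.72 and 3.34, as the flat Tap1 probe sets enter the mean. Calr minus Canx passed without WT tumour 3 (0.16, exact permutation, adjusted p = 0.0463; 0.081 to 0.16 without 1 tumour), and Pdia3 minus Pdia4 turned to 0.091 with all probe sets.

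Probe sets near 0 changed sign without passing, and the cause was not tested. Tap1 1448177_at was −0.032 without mouse 72. Calr 1433806_x_at was −0.0060 with no block, −0.11 within 254 to 258, −0.00046 with cyclic loess, −0.033 with the 3′ to 5′ covariate, −0.020, −0.10 and −0.033 without mouse 04, 82 and 99, and −0.10 to 0.074 without 1 tumour. Calr 1456170_x_at was −0.074 within 254 to 258, −0.033 without mouse 82 and −0.033 to 0.13 without 1 tumour. Calr 1433806_x_at and 1456170_x_at and Canx 1415692_s_at were 0.39, 0.42 and 0.65 without mouse 72. Calr 1417606_a_at was 0.12 over mouse means, 0.064 within 191 to 229, 0.36 without mouse 72 and −0.15 to 0.028 without 1 tumour. Canx 1422845_at was 0.017 over mouse means and 0.21 without mouse 72. Canx 1415692_s_at was −0.0031 with the range covariate, −0.021 and −0.077 within 191 to 229 and 254 to 258, −0.033 without mouse 82 and −0.033 to 0.19 without 1 tumour. Canx 1428935_at was 0.020 with the 3′ to 5′ covariate, 0.078, 0.025 and 0.0017 without mouse 04, 72 and 99, and −0.056 to 0.032 without 1 tumour. Pdia3 1423423_at was 0.026 over mouse means, 0.025 within 191 to 229 and 0.18 without mouse 72. No paired analysis was possible because the KO and WT groups share no tumour number and no mouse.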
